A study of Homo sapiens with 6 samples.

Results

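The regions described here are narrow NONO regions that lay on chromatin called acetylated at histone H3 lysine 27 in both available acetylation lists. They were selected on the measured widths and positions of the peak calls, as rows of the NONO_NC list on chromosomes 1 to 22 that were narrower than 2 times the narrowest row of that list (269 bp) and overlapped by at least 1 bp both a row of H3K27ac_NC and a row of H3K27ac_PKM2_KD. This gave 6076 members among 85730 narrow NONO_NC regions, 87191 NONO_NC regions on these chromosomes and 89607 rows deposited. Of the narrow regions, members made up 7.09%, while 8208 overlapped an H3K27ac row only in NC, 5264 only in PKM2_KD and 66182 in neither list.

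The material was MDA-MB-231, an established triple-negative breast cancer cell line that lacks estrogen receptor, progesterone receptor and HER2 amplification, and the assay was CUT&Tag, in which an antibody tethers a transposase that cuts out nearby DNA for sequencing. NONO was mapped in cells of wild-type genotype (NONO_NC, NC being the negative control) and after knockdown of NONO (NONO_KD). H3 phosphorylated at threonine 11 (H3T11ph) and H3 acetylated at lysine 27 (H3K27ac) were each mapped in NC cells and after knockdown of PKM2 (PKM2_KD). Each of the 6 groups held 1 library, so no difference between conditions has a replicate check, and all intervals given below are 95% intervals that cover counting error only.

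NONO is a nuclear RNA- and DNA-binding protein of the DBHS family that pairs with SFPQ or PSPC1, is a core protein of paraspeckles and takes part in transcription, splicing and DNA repair. H3K27ac marks active promoters and enhancers, and PKM2, best known as a glycolytic pyruvate kinase, can enter the nucleus and is reported to phosphorylate H3T11.

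Sequence is shown here only for members at promoters, which were a minority, as a listed start fell inside 409 members (6.73%). The RefSeq windows printed here (GRCh38.p14, the same build as hg38, which the submitters' processing notes name) run from 250 bases before to 50 bases after a gene's start, 5′ to 3′ on the gene's strand, with the bases that lie inside the NONO_NC region in capitals. COX5A and MRPL4, which encode a subunit of cytochrome c oxidase and a protein of the mitochondrial ribosome, are among the gene ends with the highest NONO_NC fold. SETDB1, an H3K9 methyltransferase, and MED26, a subunit of the Mediator complex, hold members that were also listed in NONO_KD. The windows are chr15:74938024-74938323 (minus strand) for COX5A, chr19:10251964-10252263 (plus strand) for MRPL4, chr1:150926013-150926312 (plus strand) for SETDB1 and chr19:16628155-16628454 (minus strand) for MED26.
COX5A: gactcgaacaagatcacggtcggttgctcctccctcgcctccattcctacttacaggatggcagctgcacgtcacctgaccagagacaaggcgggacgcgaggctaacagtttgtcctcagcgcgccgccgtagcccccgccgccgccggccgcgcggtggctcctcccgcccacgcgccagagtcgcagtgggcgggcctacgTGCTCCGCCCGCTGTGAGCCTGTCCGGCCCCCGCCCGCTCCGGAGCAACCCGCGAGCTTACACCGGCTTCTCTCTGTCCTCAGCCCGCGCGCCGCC
MRPL4: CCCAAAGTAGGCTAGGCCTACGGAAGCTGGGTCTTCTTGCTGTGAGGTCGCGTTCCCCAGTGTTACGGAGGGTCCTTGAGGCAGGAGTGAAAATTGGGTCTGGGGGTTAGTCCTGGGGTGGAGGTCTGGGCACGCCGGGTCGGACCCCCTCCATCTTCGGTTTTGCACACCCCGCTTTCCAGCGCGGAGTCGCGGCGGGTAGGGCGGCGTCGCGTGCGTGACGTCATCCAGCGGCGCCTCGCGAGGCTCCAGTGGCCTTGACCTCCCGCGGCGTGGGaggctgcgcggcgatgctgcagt
SETDB1: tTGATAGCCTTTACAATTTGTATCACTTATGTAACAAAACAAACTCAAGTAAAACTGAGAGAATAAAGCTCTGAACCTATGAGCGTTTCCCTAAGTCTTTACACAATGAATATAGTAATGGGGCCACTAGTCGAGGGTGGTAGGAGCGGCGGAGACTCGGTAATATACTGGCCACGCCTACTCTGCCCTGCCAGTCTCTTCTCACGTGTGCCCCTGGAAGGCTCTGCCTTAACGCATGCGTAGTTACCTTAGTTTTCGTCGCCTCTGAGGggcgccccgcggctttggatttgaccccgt
MED26: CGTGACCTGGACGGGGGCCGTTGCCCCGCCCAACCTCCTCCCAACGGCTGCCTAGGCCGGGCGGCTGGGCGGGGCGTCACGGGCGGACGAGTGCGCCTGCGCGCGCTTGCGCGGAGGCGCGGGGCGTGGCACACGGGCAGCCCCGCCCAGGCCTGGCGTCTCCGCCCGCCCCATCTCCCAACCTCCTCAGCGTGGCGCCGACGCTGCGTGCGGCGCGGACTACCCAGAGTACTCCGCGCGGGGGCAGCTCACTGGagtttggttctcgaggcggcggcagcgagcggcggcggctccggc
The COX5A region covered the last 96 bases of its window and the MRPL4 region the first 277, while the SETDB1 and MED26 regions covered 269 and 255 bases. G and C made up 70.7%, 66.7%, 49.0% and 77.3% of the windows in that order, so the SETDB1 promoter was the one of these 4 with a GC content near 50%.

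The members were short, and most had the narrowest width of their list. Of the 6076, 5382 (88.6%) were exactly 269 bp wide, against 97.1% of the narrow regions on neither acetylation list. The widest members measured 537, 536, 535, 534 and 534 bp. Of the next 5 regions, 3 were at the limit itself and the others measured 539 and 540 bp. In all, 383 NONO_NC regions at or over the limit also lay on both acetylation lists and were not members. The fold of a region, which is how far its summit rose over the background within that library, had a median of 21.2 in members (interval 20.5 to 22.1, middle 50% from 8.44 to 46.9, range 1.53 to 308.0). The medians were 29.5 for regions on H3K27ac_NC only, 22.1 for those on H3K27ac_PKM2_KD only and 23.7 for those on neither. Members thus had no higher fold than the other narrow regions. The pileup height at the summit was recovered from the fold and p-value only where −log10 p was below 200, which leaves out the most significant regions. In the 4728 members with a height its median was 49 fragments, against 41, 42 and 38 in the other classes, so here members stood highest.

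The lists themselves differed in form, which bears on every overlap. In NONO_NC and H3K27ac_NC, 94.5% and 79.1% of rows were as short as the shortest one (269 and 112 bp). In NONO_KD, H3T11ph_NC, H3T11ph_PKM2_KD and H3K27ac_PKM2_KD between 1.19% and 2.06% did. On chromosomes 1 to 22 the NONO_NC list covered 24.7 Mb in 87191 regions and the NONO_KD list 5.85 Mb in 43292 regions with a median width of 123 bp. The lists hold no read totals. The effect of a knockdown and of the different form or depth of its list cannot be told apart here.

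Members lay close to genes. Of the 6076, 1384 (22.8%, interval 21.7 to 23.8) were within 1 kb of an end of a protein-coding gene, where 6.59% of all narrow NONO_NC regions were. The share was 5.80% for regions on H3K27ac_NC only, 13.2% for those on H3K27ac_PKM2_KD only and 4.68% for those on neither list. Members exceeded the last of these by 18.1 percentage points (17.0 to 19.2). Acetylated rows themselves lie near genes, so the rows of H3K27ac_PKM2_KD that overlapped an H3K27ac_NC row but no NONO_NC row were placed in the same way by a 269 bp window on their summit. Of 62582 such windows, 13.4% were within 1 kb of a gene end (13.1 to 13.7), while 23.5% of the 5608 windows of rows with a member were (22.4 to 24.6). Acetylated rows with a member thus lay at gene ends more often than acetylated rows without NONO, beyond counting error. A wider row is more easily overlapped, so the same shares were taken within bands of row width. In the 4 bands up to 2000 bp the rows with a member exceeded those without NONO by 4.87, 5.25, 5.76 and 6.995 percentage points in order of width, for example 12.4% against 7.53% in rows up to 250 bp (difference 2.95 to 7.07) and 35.5% against 28.5% in rows over 1000 and up to 2000 bp (4.14 to 9.91). In wider rows the interval of the difference included 0, at 21.6% against 19.6% in rows of 2001 to 4000 bp (−2.10 to 6.30) and 11.8% of 85 against 4.44% of 45 in rows over 4000 bp (−4.31 to 16.5).

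Most of the remaining members were inside genes. Another 2627 (43.2%) lay inside a protein-coding gene more than 1 kb from its ends, 272 (4.48%) lay outside genes at 1 to 5 kb, and 1793 (29.5%) lay outside genes at more than 5 kb. In regions on neither acetylation list 45.0% were inside genes and 45.6% were outside at more than 5 kb. Members had fewer distant intergenic regions and more gene ends. A start site listed in the promoter table fell inside 409 members (6.73%) and inside 0.390% of regions on neither list. Among 1141 members with a summit within 1 kb of such a start, 584 summits (51.2%) were upstream and 557 downstream, with a median position of −10 bp, and 621 (54.4%) were within 250 bp. Member summits were therefore spread almost evenly to both sides of the start.

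**Figure D1:**
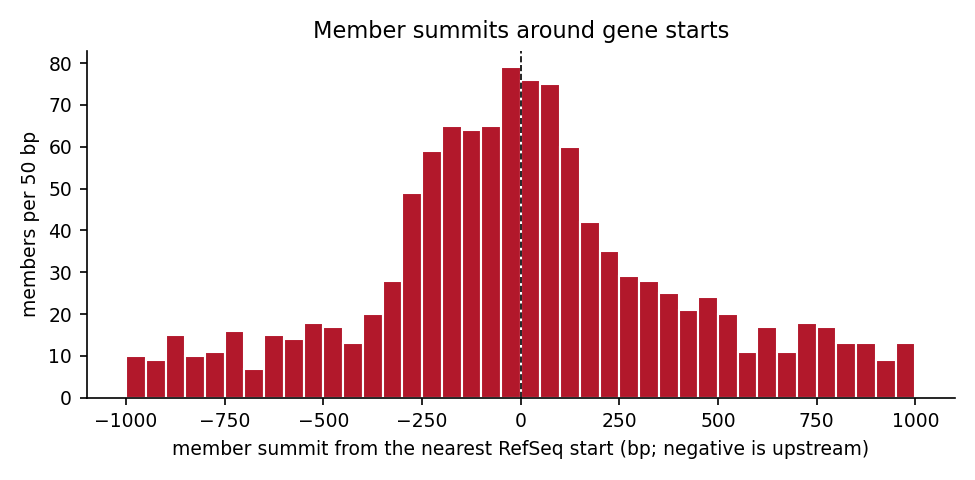
Position of member summits relative to the nearest RefSeq gene start, in bp with negative values upstream; bars count members per 50 bp for the 1141 summits within 1 kb. The counts are highest around the start and spread to both sides, with 54.4% within 250 bp.

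Acetylated rows with a member were wide. The rule used these rows and a wide row is overlapped more readily, so their widths are given as a description. The 5608 H3K27ac_PKM2_KD rows that overlapped an H3K27ac_NC row and held a member had a median width of 673 bp (654 to 696, widest 14137 bp), and the 62582 such rows with no NONO_NC region had a median of 296 bp (293 to 299). With the 340 rows included whose member met H3K27ac_NC at another place, the median was 627 bp. For the member, the H3K27ac_PKM2_KD row had a median of 678 bp (middle 50% from 307 to 1357 bp) and the H3K27ac_NC row one of 385 bp. The H3K27ac_PKM2_KD row was at least 2500 bp in 551 members (9.07%), and it was under 250 bp in 1173 (19.3%).

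The share of acetylated rows that held a member rose with row width, from 3.63% of 27796 rows up to 250 bp, through 10.6% of 13920 rows of 501 to 1000 bp, to 61.2% of 139 rows over 4000 bp. Per length, the increase was smaller. Rows up to 250 bp held 98.9 member summits per Mb, rows of 501 to 1000 bp held 130 per Mb and rows over 4000 bp held 171 per Mb. Of the 5608 rows with a member, 5367 held 1, 217 held 2, 21 held 3 and 3 held 4. Many members reached beyond the acetylated row. The summit was inside the H3K27ac_PKM2_KD row in 4694 members (77.3%) and the whole region was inside such rows in 2974 (48.9%). H3K27ac_NC rows held the whole region in 1987 members (32.7%) and at least 50% of it in 3594 (59.2%), while in 206 members (3.39%) the smaller overlap was under 10 bp. In 5728 members the H3K27ac rows of both lists also overlapped each other.

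**Figure D2:**
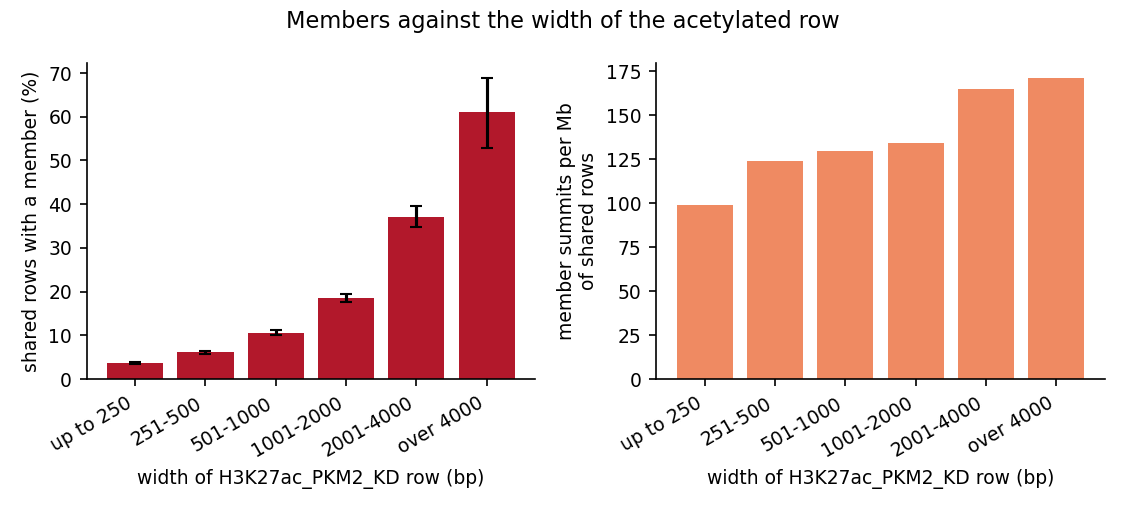
Left, share of H3K27ac_PKM2_KD rows overlapping an H3K27ac_NC row that held a member, by row width in bp, with 95% Wilson intervals; right, member summits per Mb of those rows. The share climbs from 3.63% to 61.2%, and the summits per Mb from 98.9 to 171.

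Few members were listed again after NONO knockdown, but more than of the other narrow regions. Of the 6076, 369 (6.07%, interval 5.50 to 6.70) were overlapped by a NONO_KD region, where 1.73% of all narrow NONO_NC regions were. The share was 1.40% for regions on H3K27ac_NC only, 3.61% for those on H3K27ac_PKM2_KD only and 1.22% for those on neither list. The difference between members and the last class was 4.85 percentage points (4.27 to 5.49). The difference from regions on neither list remained above 0 in every band of NONO_NC height. At heights of 5 to 10 fragments 9.62% of members and 1.31% of regions on neither list were found in NONO_KD. At 21 to 40 fragments the values were 6.73% and 1.24%, and above 80 fragments they were 6.96% and 1.46%. Where no height could be recovered, almost always because −log10 p was at least 200, they were 3.04% and 0.973%. The share also differed with width. Members of exactly 269 bp were found in 4.81% of cases and the 694 wider members in 15.9%. Regions on H3K27ac_PKM2_KD only were nearer to the members. The difference from them was 2.46 percentage points (1.68 to 3.25) in all, and its interval included 0 for regions wider than 269 bp, at 15.9% against 14.8% (−3.69 to 5.39), for regions within 1 kb of a gene end, at 5.997% against 5.17% (−1.39 to 2.80), for those outside genes at 1 to 5 kb (−0.235 to 5.57), and where no height was recovered, at 3.04% against 2.87% (−1.23 to 1.51).

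**Figure D3:**
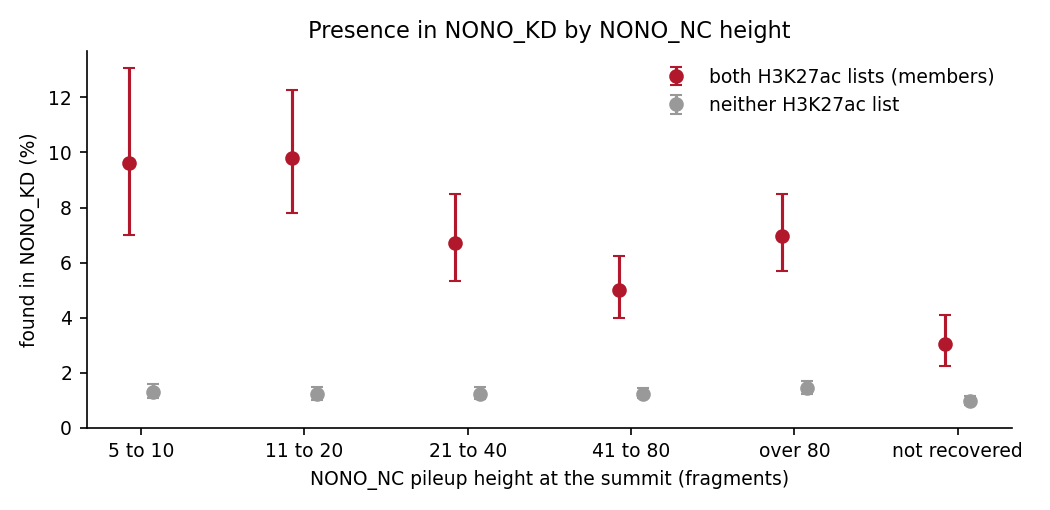
Share of narrow NONO_NC regions found in NONO_KD, by pileup height of the NONO_NC summit in fragments, for members and for regions on neither H3K27ac list; points are shares and bars 95% Wilson intervals. Members lie above the other regions in every band, at 3.04% to 9.80% against 0.973% to 1.46%.

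The 369 members in NONO_KD had a low fold in NONO_NC. Their NONO_NC fold had a median of 8.42, against 21.2 for all members. Their NONO_KD row had a median fold of 11.7 and a median width of 146 bp, and the NONO_KD fold was below the NONO_NC fold in 138 (37.4%). These folds are each relative to the background of their own library and do not measure a change in NONO. The summits of both lists had a median gap of 91 bp, and 200 (54.2%) were within 100 bp. These members were picked because the 2 rows overlap, which itself keeps the summits near each other. The gap is therefore a description and does not show that the same site was found again. When at least 50% of the NONO_NC region had to be covered, in this and in the acetylation overlaps, 2.46% of the then 3252 members were found in NONO_KD. The median row of the whole NONO_KD list, 123 bp, is under 50% of a 269 bp region. The rows at the 369 members had the wider median of 146 bp. How far row width accounts for the lower share was not tested.

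Part of this presence was concentrated far from genes. Of the members, 330 lay more than 500 kb from any protein-coding gene end, and 106 of them (32.1%, interval 27.3 to 37.3) were found in NONO_KD. Of the other 5746, 263 (4.58%, 4.07 to 5.15) were. Regions on H3K27ac_PKM2_KD only showed a like split, with 40 of 335 (11.9%, 8.89 to 15.9) far from genes and 3.04% nearer, and the distant ones had a median NONO_NC fold of 6.84 against 5.94 for the distant members. In regions on neither acetylation list the values were 1.81% and 1.17%. Without these distant regions, the difference between members and regions on neither list was 3.41 percentage points (2.89 to 3.99). The excess at low heights was smaller without them: at 5 to 10 fragments 2.99% of 268 members and 1.13% of regions on neither list were found in NONO_KD, in place of 9.62% of members, while above 80 fragments 6.76% of members were. The difference was still above 0 in each height band, the smallest being 1.85 percentage points (0.361 to 4.66). The median NONO_NC fold of the members found in NONO_KD was 13.7 without the distant regions, against 22.5 for the members near genes.

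Of the 330 distant members, 234 fell into 4 stretches. The stretch chr19:24911355-27169685 held 70 members with 32 in NONO_KD, chr1:122517554-124776379 held 66 with 32, chr10:40070608-41409420 held 51 with 10, and chr5:47359673-49646246 held 47 with 24. The median NONO_NC fold of the 4 was between 5.10 and 5.85, below the median of all members. In hg38 these stretches are centromeric, built of long arrays of repeats. The handling of reads that match many places is not given in the sources used here. Its part in the result was not tested. The 96 distant members elsewhere had 8 in NONO_KD.

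**Figure D4:**
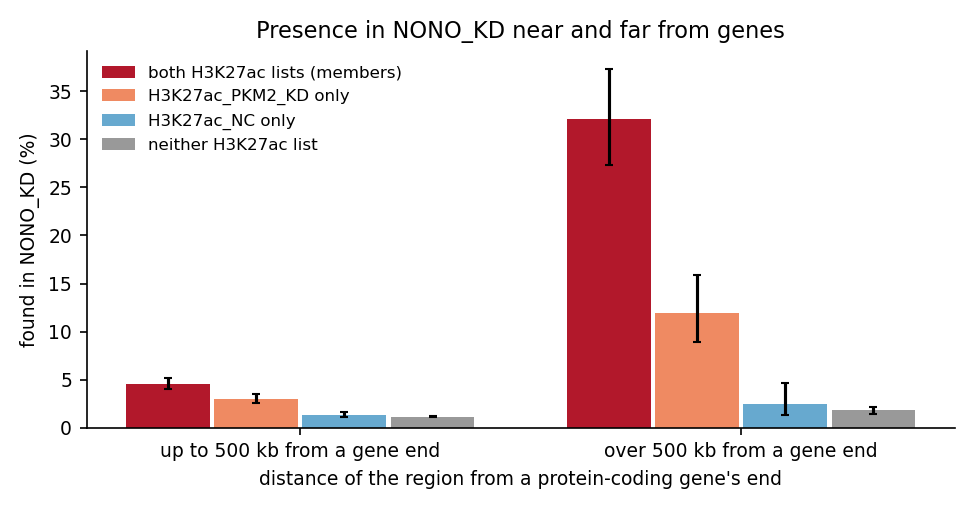
Share of narrow NONO_NC regions found in NONO_KD, up to and over 500 kb from a protein-coding gene end, for the 4 classes by H3K27ac list; bars are shares with 95% Wilson intervals. Members over 500 kb away stand at 32.1%, and members nearer to genes at 4.58%.

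Members were also found on the H3T11ph lists more often than other narrow regions. An H3T11ph_NC row overlapped 870 members (14.3%, 13.5 to 15.2), where 2.60% of all narrow regions were overlapped, and 1.37% of those on neither acetylation list. An H3T11ph_PKM2_KD row overlapped 917 members (15.1%, 14.2 to 16.0), where 2.30% of all narrow regions were overlapped, and 1.00% of those on neither list. Rows of both H3T11ph lists overlapped 336 members (5.53%), where 0.656% of all narrow regions were. The NC and PKM2_KD shares come from the same members, so their separate intervals do not test the difference between them. The individual regions mostly differed, since 534 of the 870 members on H3T11ph_NC were not on H3T11ph_PKM2_KD. Without the regions over 500 kb from a gene end, 13.0% of members were on H3T11ph_NC. When at least 50% of the region had to be covered, also in the acetylation overlaps, 8.67% were. The median row of the whole H3T11ph_NC list, 134 bp, is under 50% of a 269 bp region. How far row width accounts for this lower share was not tested.

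The lists fell together. Among members on H3T11ph_NC, 167 of 870 (19.2%) were found in NONO_KD, and among the rest 202 of 5206 (3.88%), a difference of 15.3 percentage points (12.8 to 18.1). Of the 330 distant members, 37.0% were on H3T11ph_NC, and without them the shares in NONO_KD were 13.5% and 3.24%, a difference of 10.3 points (7.94 to 12.9). On both H3T11ph lists, 82 of 336 (24.4%) were found in NONO_KD, and these 82 were present on all 6 lists, 52 of them within 500 kb of a gene end. On none of the other 3 lists were 4464 members (73.5%). H3T11ph also rose with the width of the acetylated row, from 8.40% of members in H3K27ac_PKM2_KD rows up to 250 bp to 18.8% in rows over 4000 bp for H3T11ph_NC, and from 7.47% to 27.1% for H3T11ph_PKM2_KD. Presence in NONO_KD did not rise in this way, at 5.35% in the narrowest rows and 3.76% of 133 members in the widest.

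**Figure D5:**
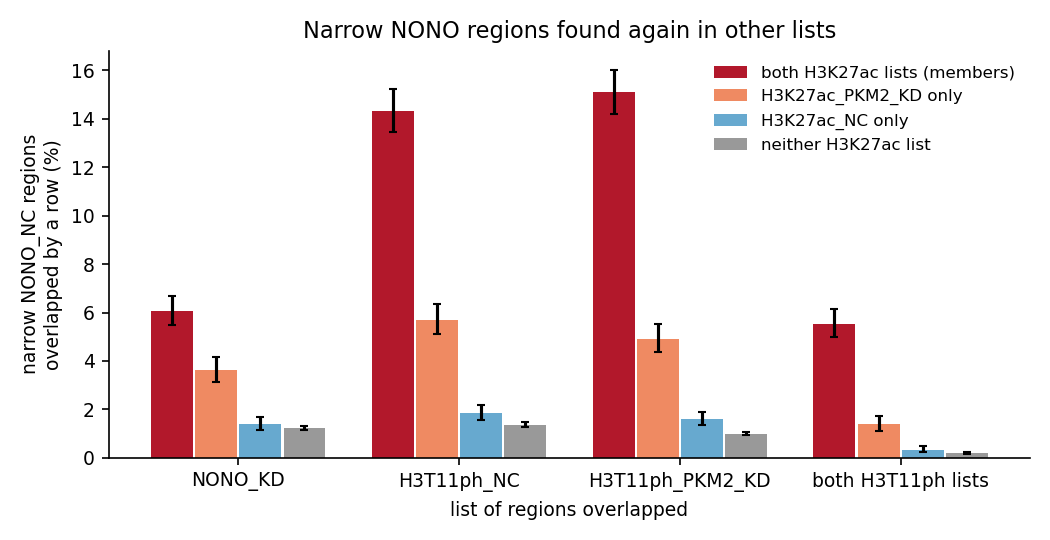
Share of narrow NONO_NC regions overlapped by a row of NONO_KD, of each H3T11ph list and of both H3T11ph lists, for the 4 classes by H3K27ac list; bars are shares with 95% Wilson intervals. Members stand highest in each, at 6.07%, 14.3%, 15.1% and 5.53%.

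At the level of genes, 3577 of 19122 protein-coding genes on chromosomes 1 to 22 (18.7%) held a member inside or within 5 kb, and 1542 (8.06%) held one within 1 kb of an end. Counted inside or within 5 kb, 946 genes held 2 or more and 82 held 5 or more. Long genes hold more, as 11.9% of the 4782 shortest and 27.1% of the 4781 longest genes held a member. Across chromosomes the members made up between 4.43% of narrow regions on chromosome 21 and 10.5% on chromosome 10.

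The gene ends with the highest NONO_NC fold were of varied function. ARF3, a small GTPase of the Golgi, held a member 343 bp wide at chr12:48956466-48956808 with a fold of 188, in an H3K27ac_PKM2_KD row of 175 bp. COX5A held one at chr15:74937851-74938119 with a fold of 177, in a row of 576 bp. ZNF333, a zinc finger gene, held one at chr19:14689796-14690064 with a fold of 173 that was also on both H3T11ph lists. A region with a fold of 167 lay near the ends of APOM and C6orf47, which share it. UXS1, an enzyme of nucleotide sugar metabolism, had 162. ZC3H6 had 152, CHCHD3, a protein of the mitochondrial cristae complex, had 150, and MRPL4 had 149. A region with 149 was shared by LRRC34 and LRRIQ4. None of the regions named here was found in NONO_KD, and 4 of them were on H3T11ph_NC, at ZNF333, UXS1, ZC3H6 and MRPL4.

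The gene ends in the widest acetylated rows had NONO_NC folds between 2.60 and 44.7, and 3 of the 10 were above the median of all members. The widest row, 14137 bp, held a member at an end of UQCC1, an assembly factor of respiratory complex III, with a fold of 8.53. AXL, a receptor tyrosine kinase of mesenchymal-like breast cancer cells, lay in a row of 7322 bp, had a fold of 44.7 at chr19:41219631-41219899 and held 7 members in all. ROBO4, a receptor of endothelial cells, had a row of 7226 bp and a fold of 2.99, and HORMAD2 one of 5837 bp and a fold of 2.60. MYEOV, ENC1, C11orf68 and LOC128462377 had rows of 5581, 5039, 4807 and 4735 bp and folds of 3.64, 31.5, 4.22 and 21.8. DUSP1, a phosphatase of MAP kinases, had 4410 bp and a fold of 10.7, and VIM, the intermediate filament vimentin, had 4394 bp and a fold of 11.7. None of these 10 regions was found in NONO_KD, and those at MYEOV and C11orf68 were on both H3T11ph lists.

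Several long genes collected many members. CDH4, a cadherin, held 17, SEPTIN9, a cytoskeletal GTPase, 15, TRIO, a guanine nucleotide exchange factor, 13, and CMIP 12. ANKRD11, NIBAN2 and ZMIZ1 held 11 each, MYH9, the heavy chain of non-muscle myosin IIA, 10, and CELF2 and EXT1 9 each. The member with the highest fold of all, 308, lay inside CMIP at chr16:81647551-81647878, in an H3K27ac_PKM2_KD row of 356 bp and an H3K27ac_NC row of 150 bp.

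The members with the highest fold in NONO_KD lay at starts in 3 of 12 cases. At SEPTIN10 the NONO_KD row at chr2:109614005-109614204 had a fold of 113, and the NONO_NC region, 500 bp wide with a fold of 60.3, was on both H3T11ph lists. At SETDB1 the NONO_KD fold was 90.2 and the NONO_NC fold 16.1. At MED26, where both H3T11ph lists also had a row, they were 86.5 and 5.03. Inside DCPS, the scavenger mRNA decapping enzyme, they were 106 and 17.9, and inside IGF2R, the receptor for mannose 6-phosphate and IGF2, the NONO_KD fold was 99.4. The others were nearest to ARF6, GPR61, EPS15L1, KIF2A, MIF, ISCU and PTPRC, with NONO_KD folds between 78.2 and 106. Of these, ARF6, KIF2A and PTPRC were more than 100 kb from their member.

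Named gene groups held members to different degrees, and the values are counts without a test. Of all 19122 protein-coding genes, 18.7% held a member inside or within 5 kb. Of 13 genes for paraspeckle proteins, 2 (15.4%) did, DAZAP1 and TAF15, a share near that of all genes. The genes of the NONO partners SFPQ and PSPC1 did not. Of 12 genes for AP-1 factors and their relatives, 8 did, among them JUN, JUNB, JUND and FOSL1, which held 6. The member at JUN had a fold of 5.89 and was on the NONO_KD and both H3T11ph lists. Of 13 genes of the YAP and TEAD pathway, 8 did, with 7 members at AXL, 5 each at TEAD1 and TEAD3, and 2 at CCN2. Of 11 genes of the actin cytoskeleton and adhesion, 7 did, with 10 members at MYH9, 5 at ACTN4 and 2 at ACTB, whose stronger one had a fold of 138.

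Markers of cell state were mixed. Of 13 mesenchymal genes, 5 held a member, with 3 each at VIM and SPARC and none at FN1, ZEB1 or CD44. Of 14 luminal and epithelial genes, 6 did, with 3 at KRT8 and 1 each at GATA3, XBP1, KRT18, KRT19 and SPDEF, and none at ESR1, PGR or CDH1. Of 9 genes that the study itself followed, a list it chose, 6 did, with 3 members each at ADAMTSL4, MATN2 and MCAM, 2 at CCN2 and 1 each at IL11 and FERMT2. Acetylation differs between the groups, and among genes with an acetylated row of both lists inside or within 5 kb, the share with a member was 26.6% of all 13355 such genes, 72.7% of 11 AP-1 genes, 66.7% of 12 YAP and TEAD genes, 63.6% of 11 actin genes, 6 of 12 luminal and epithelial genes, 38.5% of 13 mesenchymal genes and 15.4% of 13 paraspeckle genes. Of the 9 genes the study followed, which all had such a row, 66.7% held a member. Per kb of these acetylated rows, all genes held 0.181 members. The YAP and TEAD, actin and mesenchymal genes were near this value. The luminal and epithelial genes, the AP-1 genes and the genes the study followed stood above it, and the paraspeckle genes below. The values were 0.347 for luminal and epithelial genes, 0.303 for AP-1, 0.210 for YAP and TEAD, 0.197 for actin, 0.188 for mesenchymal and 0.117 for paraspeckle genes, and 0.419 for the genes the study followed.

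Promoters with a member were rich in G and C, as were other acetylated promoters. Of the 21040 promoter windows of 300 bases, 796 (717 genes) were overlapped by a member, and their median GC content was 65.0% with 26 CpG. The 5691 windows overlapped by rows of both H3K27ac lists and by no NONO_NC region had 64.7% and 26, and all windows had 62.7% and 21. Short motifs were searched on both strands, as letters only. The GC box, GGGCGG, was in 74.6% of member windows, 68.5% of the acetylated windows without NONO and 56.6% of all windows, a difference of 6.15 percentage points between the first 2 sets (2.79 to 9.29). The CCAAT box, CCAAT, was in 41.2%, 34.7% and 34.4%, a difference of 6.48 points (2.89 to 10.1). The AP-1 motif, TGANTCA, was less common in member windows, in 4.02%, 6.19% and 6.09%, a difference of −2.17 points (−3.50 to −0.457). The TATA box, TATAAA, was in 3.39%, 5.68% and 9.54%, a difference of −2.28 points (−3.51 to −0.680), and the cyclic AMP response element, tgacgtca, in 2.39%, 3.94% and 2.30%, a difference of −1.55 points (−2.56 to −0.155). The ETS motif, CCGGAAG, was in 20.4%, 21.7% and 12.8%, a difference of −1.31 points whose interval (−4.18 to 1.80) includes 0. The intervals also included 0 for the NRF1 motif, in 11.7%, 11.2% and 7.37%, for the E-box, CACGTG, in 10.6%, 9.98% and 8.22%, and for the TEAD motif, GGAATG, in 10.7%, 11.02% and 12.2%. In all, 9 motifs were compared without adjustment, and a match does not show that a factor bound there. Of the windows printed above, COX5A held the GC box and the TEAD motif, and MED26 the GC box and the NRF1 motif. The MRPL4 window held the GC box, the CCAAT box and the cyclic AMP response element, and the SETDB1 window only the E-box.

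Some members lay within 1 kb of microRNA genes. Of 1461 hairpins in the RefSeq table, 39 (2.67%) were within 1 kb of a member. The same share was not taken for other narrow regions, so the count shows nothing particular to members. The sequences shown are the mature arms of 3 loci chosen after their values were seen because they are widely known, with the seed (bases 2 to 8) in capitals.
hsa-miR-23a-3p: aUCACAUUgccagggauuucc
hsa-miR-27a-3p: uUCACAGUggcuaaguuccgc
hsa-miR-24-3p: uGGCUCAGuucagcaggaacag
hsa-miR-146a-5p: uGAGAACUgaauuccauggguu
hsa-miR-203a-3p: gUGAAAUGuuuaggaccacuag
The MIR23A, MIR27A and MIR24-2 hairpins lie together at chr19 and share 1 member at chr19:13835658-13835935, which had a fold of 14.3, lay 352 bp from MIR24-2 and was on H3T11ph_NC. The seeds of miR-23a-3p and miR-27a-3p share their leading bases. The member 474 bp from MIR146A had a fold of 71.1 and overlapped H3K27ac rows of 310 bp in PKM2_KD and 113 bp in NC. The member 159 bp from MIR203A had a fold of 8.95 and overlapped rows of 210 and 112 bp. None of the 3 members was found in NONO_KD.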

How the data were processed

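CUT&Tag was run on MDA-MB-231 cells for NONO and for the histone marks H3T11ph and H3K27ac, with Illumina sequencing. The authors deposited 1 narrowPeak list per library, giving for each region a score, the fold (a ratio of the summit over the background), and p- and q-values as −log10. The submitters' processing notes name MACS2 2.1.1.20160309, cutadapt 1.18, SAMtools 1.3.1, FastQC 0.11.9 and hg38; the aligner, duplicate handling and any control are not given in the sources used here. Read totals are not part of the lists and the depth is unknown.

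Groups came from sample titles. Regions were overlapped by at least 1 bp with numpy 2.4.6 and pandas 2.3.3 on Python 3.11.15, and placed against RefSeq protein-coding genes (GRCh38.p14). Pileup heights were recovered from fold and p where −log10 p was below 200 (66858 of 66859 matched within 0.002). Shares carry Wilson and differences Newcombe intervals (statsmodels 0.14.6, 95%), with no p-values. The overlap, distance and height functions were tested on simulated data. Members and gene lists were chosen with earlier results of these data known. Named genes are those with the highest NONO_NC fold at an end, the widest acetylated row at an end, the most members, or nearest to the members strongest in NONO_KD, plus 7 lists; 1 gene that the rule names is not reported here. Of 19122 genes, 15100 had a promoter window. Alternatives are given in the closing section.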

Additional observations from a re-analysis of the deposited data

Results flagged for a closer look

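Chromosome X was outside the rule and its regions enter no comparison above. Of 2262 narrow NONO_NC regions there, 85 (3.76%, 95% Wilson interval 3.05 to 4.62) met the same conditions on width and acetylation. The share on chromosomes 1 to 22 was 7.09%, and the lowest single autosome, chromosome 21, had 4.43%. The regions are listed here because they are data that the comparisons do not use. Of these 85, 4 were found in NONO_KD and 12 in H3T11ph_NC.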

How the results depend on the processing

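Each result was recomputed under alternative settings, 1 at a time. The difference in presence in NONO_KD kept its sign throughout, and the other results cannot be negative. A result counts as moved where the alternative left the 95% interval of the main value, or, for the count of members, 1.5 times it. The count of members fell from 6076 to 3252 when at least 50% of the NONO_NC region had to be overlapped, and kept within 1.5 times under the other 6 settings. The share within 1 kb of a gene end was 22.8%, and became 24.1% with H3K27ac rows of −log10 q of at least 5, 24.8% with 50% overlap, 24.8% for regions wider than 269 bp, 24.1% without regions over 500 kb from a gene end, and 29.6% with a 2.5 kb window. The share found in NONO_KD was 6.07%, and became 2.46% with 50% overlap, 4.81% for regions of exactly 269 bp, 15.9% for wider ones and 4.58% without the distant regions. Its difference from regions on neither list was 4.85 points, and became 2.20, 3.76, 9.06 and 3.41 under these settings. The H3T11ph_NC share was 14.3%, and became 8.67%, 12.2%, 30.8% and 13.0% under these, and 15.7% with the stricter H3K27ac q. The median width of the acetylated rows was 627 bp, and became 846 bp with the stricter H3K27ac q, 1008 bp with 50% overlap, 669 bp where the H3K27ac rows had to overlap each other, 690 bp with a 200 bp summit window and 655 bp without the distant regions. The median NONO_NC fold was 21.2, and became 23.7 with NONO_NC −log10 q of at least 5, 20.2 with 50% overlap and 22.5 without the distant regions. The cause was not tested. The 50% setting applied to the acetylation overlaps too, so it also changed which regions were members. The settings for wider regions and for distant regions were chosen after seeing the data. No paired analysis was possible because no group had more than 1 library. With 1 library per group and no read totals, a region absent from a list was not detected there, and is not shown to be lost.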
